A study of Mus musculus with 4 samples.

Results

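The peaks described here were the wide, isolated members of a list of H3K9ac differential peaks in mouse aorta macrophages. A peak was taken when it was over 1500 bp wide and no other peak of the list began at its end or ended at its start. This gave 507 of the 20943 peaks in the list (2.42%), which together covered 975.6 kb, or 8.33% of the bases in all H3K9ac peaks. The list compared 1 ChIP-Seq library from CIH mice with 1 library from RA mice, out of 4 libraries that also included H3K27me3 in both exposures. The mice were C57BL/6J animals with no engineered allele named in the labels. In the CIH group (chronic intermittent hypoxia), oxygen alternated between 6.1% and 21% in phases of 90 seconds for 12 hours a day over 20 weeks. The RA group (room air) stayed at 21% oxygen for the same 20 weeks. Macrophages were taken from dispersed aortas with magnetic beads against CD11b, a surface integrin that other myeloid cells also carry, and the study gives a number of animals per condition but not how many went into each library. No input library was used here, and the authors filtered out blacklisted regions and regions of low complexity.

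H3K9ac is the acetylation of lysine 9 on histone H3, a mark of active promoters and enhancers. Acetyl groups are added by histone acetyltransferases and removed by deacetylases, and the mark loosens the hold of the nucleosome on DNA and is read by proteins that help transcription start. Broad acetylated domains often lie over the start and first part of genes that a cell type uses strongly. H3K27me3, the second mark of the study, is laid down by the Polycomb complex and is found over silent genes.

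With 1 library per mark and exposure there was no replicate error, and no peak could be checked in a second library. The study tested its H3K9ac peaks at Foxo4, Lrtm2, Abca1 and Il6 by ChIP-qPCR and reports concordant directions. None of those peaks is in the wide standalone set. Width and direction came from 1 peak calling on the same libraries, so all values below describe the list and none is a test. In a bulk preparation, more mark per cell and more cells that carry the mark cannot be told apart. The lists give no read number, so the depth behind each peak is not known from them. The study states a larger sequencing yield for the CIH library than for the RA library of H3K9ac, and the part of yield in the direction of the peaks was not tested. The sign of a peak gave its direction, a minus sign for more H3K9ac in CIH and a plus sign for more in RA. This key was set on the 483 peaks for which the study's own pairing of peaks with genes was held, which all matched in name, position and direction. That pairing was ordered by peak name and was held in part. It covered 92 of the 507 wide standalone peaks (18.1%), 83 with more H3K9ac in CIH and 9 with more in RA. They lay on chromosomes 1, 2, 3, 4 and 19, and the other 415 are described by position alone. The labelled cell type could not be checked well with this pairing. Of 10 macrophage marker genes, 1 (Mertk) was in it, beside a peak outside the wide standalone set, and none of the markers for smooth muscle, endothelium, fibroblasts, T cells or neutrophils was paired with any held peak.

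The DNA under 5 wide peaks is shown first because their genes open the results: Klf9 has the widest peak, Foxo1 the second widest with a gene name, Rela and Cdkn2c stand for the NF-kB and cell cycle groups, and Prkacb has the widest peak higher in RA. Each run is the left end of the peak on build mm9, plus strand, as given with the study. Klf9 starts at chr19:23214301-23214569, Foxo1 at chr3:52001201-52001500, Rela at chr19:5609051-5609350, Cdkn2c at chr4:109348524-109348800 and Prkacb at chr3:146474001-146474300. Capitals mark matches on either strand to the AP-1 site, which was searched as TGAGTCA and its other strand, to the GC box, searched as GGGCGG, and to the boxes named CCAAT and TATA, of which the second was searched as TATAAA.
Klf9: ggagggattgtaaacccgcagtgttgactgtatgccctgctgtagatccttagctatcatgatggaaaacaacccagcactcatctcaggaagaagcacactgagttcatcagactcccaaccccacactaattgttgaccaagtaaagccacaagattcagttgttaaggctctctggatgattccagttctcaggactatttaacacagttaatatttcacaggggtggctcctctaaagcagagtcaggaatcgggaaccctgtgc
Foxo1: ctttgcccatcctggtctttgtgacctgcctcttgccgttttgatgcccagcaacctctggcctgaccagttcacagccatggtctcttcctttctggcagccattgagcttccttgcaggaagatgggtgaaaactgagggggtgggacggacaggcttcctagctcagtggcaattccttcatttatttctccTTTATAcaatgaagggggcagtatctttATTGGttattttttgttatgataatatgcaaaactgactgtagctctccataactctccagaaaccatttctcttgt
Rela: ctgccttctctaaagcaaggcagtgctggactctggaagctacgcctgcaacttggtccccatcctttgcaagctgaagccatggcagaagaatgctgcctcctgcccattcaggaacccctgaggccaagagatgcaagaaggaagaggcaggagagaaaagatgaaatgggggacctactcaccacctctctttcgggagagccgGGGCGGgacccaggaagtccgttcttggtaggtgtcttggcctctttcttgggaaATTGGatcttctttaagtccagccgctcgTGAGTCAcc
Cdkn2c: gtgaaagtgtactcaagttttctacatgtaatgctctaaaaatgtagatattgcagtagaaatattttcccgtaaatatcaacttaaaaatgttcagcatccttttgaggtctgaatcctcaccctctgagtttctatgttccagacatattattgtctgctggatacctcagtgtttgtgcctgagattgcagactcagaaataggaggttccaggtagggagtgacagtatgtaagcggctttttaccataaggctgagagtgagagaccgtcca
Prkacb: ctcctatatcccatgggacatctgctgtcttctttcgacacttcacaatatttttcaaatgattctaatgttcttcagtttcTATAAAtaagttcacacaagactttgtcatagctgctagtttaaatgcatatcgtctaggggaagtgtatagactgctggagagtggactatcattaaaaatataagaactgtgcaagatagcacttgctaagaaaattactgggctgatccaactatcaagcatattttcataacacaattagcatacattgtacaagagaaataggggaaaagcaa

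The Rela run held an AP-1 match, a GC box and a CCAAT box read on the minus strand. The Foxo1 run held a TATA match and a CCAAT match, both on the minus strand, and the Prkacb run held 1 TATA match. The Klf9 and Cdkn2c runs held none of the marked letters. A match is a description of letters and not of a bound factor.

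The next 4 runs show where a wide peak held the start of its own gene, which places the peak on that gene. Capitals mark the 31 bases around the transcription start of RefSeq (GRCm38.p6), found in the mm9 sequence as an exact match. Txnip lies at chr3:96361601-96361895, Gpd2 at chr2:57089805-57090104, Gorasp2 at chr2:70499501-70499581 and Sgms2 at chr3:131152718-131152949. The first 3 peaks were higher in CIH, and the peak at Sgms2, a gene read on the minus strand, was higher in RA.
Txnip: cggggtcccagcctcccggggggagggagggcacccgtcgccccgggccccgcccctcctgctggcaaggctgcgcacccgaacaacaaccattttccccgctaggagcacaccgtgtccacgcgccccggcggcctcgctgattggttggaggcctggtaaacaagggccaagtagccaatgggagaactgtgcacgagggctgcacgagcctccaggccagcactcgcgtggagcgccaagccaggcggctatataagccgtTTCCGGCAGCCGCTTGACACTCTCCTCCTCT
Gpd2: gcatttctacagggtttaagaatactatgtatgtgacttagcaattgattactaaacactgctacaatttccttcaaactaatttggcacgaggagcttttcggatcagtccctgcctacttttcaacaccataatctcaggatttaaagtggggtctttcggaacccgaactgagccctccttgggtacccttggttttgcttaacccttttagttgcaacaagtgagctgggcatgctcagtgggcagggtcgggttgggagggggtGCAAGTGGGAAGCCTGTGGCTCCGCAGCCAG
Gorasp2: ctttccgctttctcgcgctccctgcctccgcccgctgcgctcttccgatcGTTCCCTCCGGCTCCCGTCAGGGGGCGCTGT
Sgms2: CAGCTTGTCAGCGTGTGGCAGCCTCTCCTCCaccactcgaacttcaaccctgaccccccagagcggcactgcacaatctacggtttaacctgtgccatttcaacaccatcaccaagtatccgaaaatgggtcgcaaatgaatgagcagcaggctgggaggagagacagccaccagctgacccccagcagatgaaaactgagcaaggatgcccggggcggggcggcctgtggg

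Wide standalone H3K9ac peaks were mostly higher in CIH. CIH had the higher signal in 464 of the 507 and RA in 43, so that 91.5% were higher in CIH (exact Clopper-Pearson 95% interval 88.7 to 93.8%), against 45.4% of all peaks in the list and 42.1% of all 13372 standalone peaks. The share higher in RA was 54.6% in the whole list and 57.9% among standalone peaks. Intervals cover counting only, and neighbouring peaks are not independent, so they are too narrow. Standing apart from other peaks made little difference at this width. The 122 peaks over 1500 bp that touched another peak had 112 higher in CIH against 10 higher in RA, a share of 91.8% (85.4 to 96.0%).

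The share higher in CIH climbed with width within the wide set. It was 89.1% at 1550 to 1750 bp (221 higher in CIH, 27 in RA), 91.9% at 1800 to 2000 bp (102 and 9), 94.0% at 2050 to 2500 bp (94 and 6) and 97.9% at 2550 to 4150 bp (47 and 1). The intervals of these 4 classes overlapped, from 84.6 to 92.7% in the narrowest to 88.9 to 99.9% in the widest. The climb continued one that began far below the width limit. Standalone peaks up to 250 bp were nearly all higher in RA, with 94 of 2629 higher in CIH (3.58%, 2.90 to 4.36%), and those over 1000 and up to 1500 bp stood at 81.5% (1013 of 1243, 79.2 to 83.6%). At the limit itself, the 56 peaks of 1550 bp split into 52 higher in CIH against 4 higher in RA, and the 59 peaks of 1500 bp just outside it into 49 against 10.

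**Figure D1:**
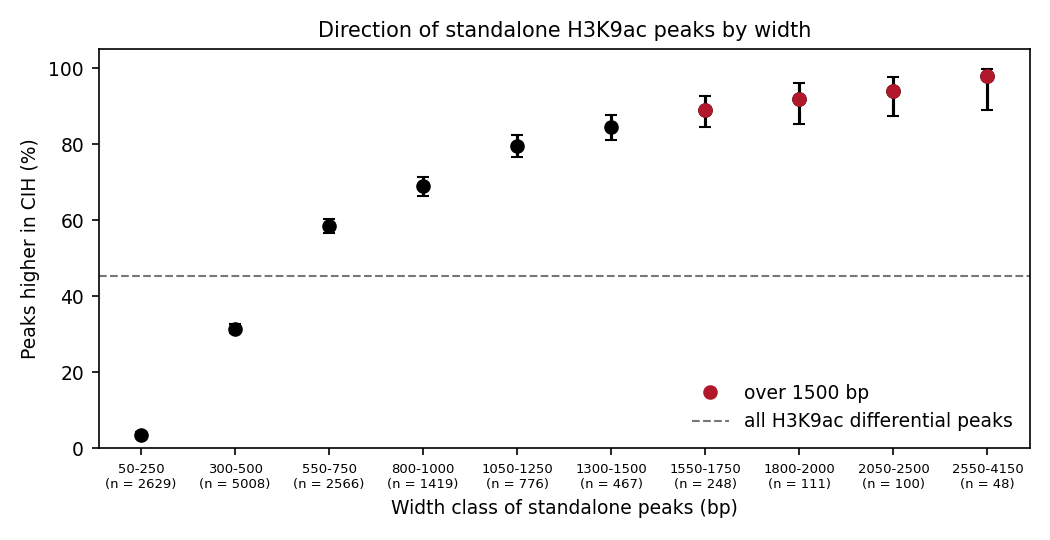
Share of standalone H3K9ac peaks higher in CIH (y axis, %) by width class (x axis, bp, n under each class), with exact 95% intervals. Classes over 1500 bp are red and narrower ones black, and the dashed line is the 45.4% of all H3K9ac peaks; the share climbs from 3.58% at 50 to 250 bp to 97.9% at 2550 to 4150 bp.

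The widths of both directions were close. Peaks higher in CIH ran from 1550 to 4150 bp, with quartiles at 1650, 1800 and 2100 bp and a mean of 1936 bp, and covered 898.4 kb. Those higher in RA ran from 1550 to 2700 bp, with quartiles at 1600, 1700 and 1825 bp and a mean of 1797 bp, and covered 77.25 kb. Most of both ranges overlapped, and the distance between the medians was 2 steps of the 50 bp grid on which all peaks are placed. These ranges come from groups of unequal size, 464 and 43 peaks.

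**Figure D2:**
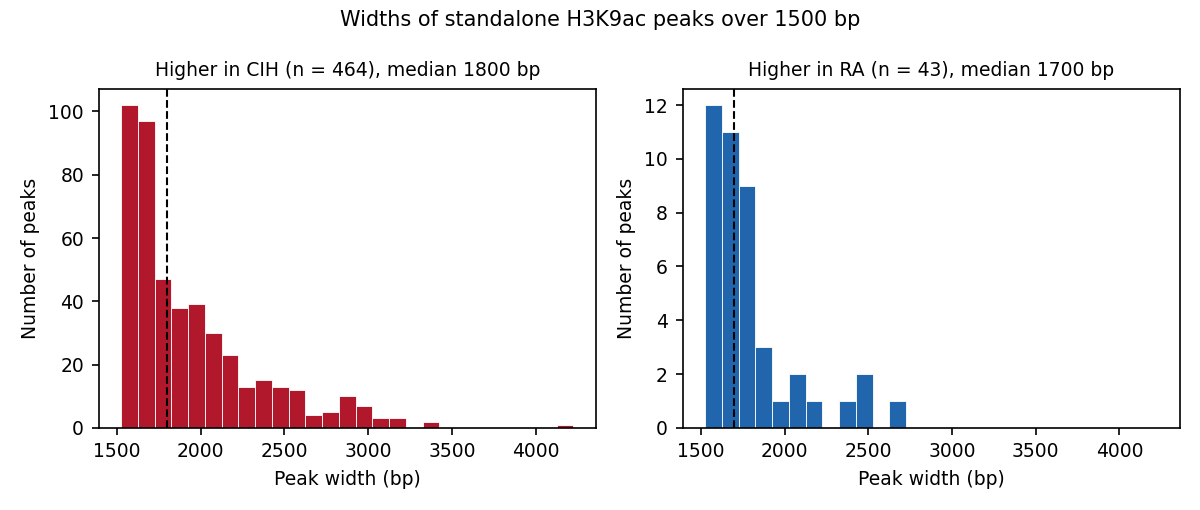
Number of wide standalone H3K9ac peaks (y axis, each panel with its own scale) by width (x axis, bp, same range in both panels), with peaks higher in CIH on the left (n = 464) and higher in RA on the right (n = 43). Dashed lines are the medians of 1800 bp and 1700 bp, and the right panel ends at 2700 bp while the left runs to 4150 bp.

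The widest peak of the set lay at Klf9 and 2410080I02Rik, measured 4150 bp (chr19:23214301-23218450) and was higher in CIH. Klf9 encodes a Krüppel-like zinc finger transcription factor that glucocorticoids and oxidative stress induce. The next 5 by width had no gene in the held pairing, and all 5 were higher in CIH. They lay at chr15:99648451-99651850 (3400 bp), chr11:75272851-75276200 (3350 bp), chr12:25783351-25786550 (3200 bp), chr11:68910151-68913300 (3150 bp) and chr17:71198401-71201550 (3150 bp). The widest unpaired peaks higher in RA were shorter, 2450 bp at chr13:38619001-38621450 and 2350 bp at chr11:53582901-53585250.

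After Klf9, the widest paired peaks were those of Foxo1 (2800 bp, chr3:52001201-52004000), 1700086P04Rik (2750 bp, chr4:128697651-128700400), Tiparp with 4931440P22Rik (2700 bp, chr3:65331151-65333850) and Prkacb with Ttll7 (2700 bp, chr3:146474001-146476700). The first 3 were higher in CIH and the peak at Prkacb and Ttll7 was higher in RA. Foxo1 encodes a forkhead transcription factor of the insulin and oxidative stress pathways, Tiparp an ADP-ribosyltransferase induced by the aryl hydrocarbon receptor, and Prkacb a catalytic subunit of the cyclic AMP-dependent kinase. They were followed by Tmem203 with Tprn (2600 bp, chr2:25117551-25120150), Ankub1 (2600 bp, chr3:57538701-57541300), Arl8a (2450 bp, chr1:137042751-137045200), Ddah1 (2450 bp, chr3:145314351-145316800) and Papss1 with Sgms2 (2450 bp, chr3:131152551-131155000). Of these, the peak at Papss1 and Sgms2 was the one higher in RA. Thus CIH was higher in 8 of the 10 widest paired peaks and RA in 2, and both RA peaks lay on chromosome 3. These 10 are too few to set their split against that of the whole set. Paired or not, 31 peaks were wider than the widest RA peak of 2700 bp. All of them are higher in CIH by that definition, so their direction is not a separate result.

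The 92 paired peaks named 130 genes, with 56 peaks at 1 gene and 34 at 2. Of the 130, 124 matched a RefSeq symbol or synonym, 112 of them protein coding and 11 lncRNA genes. The genes are taken up below in groups by role. The groups were drawn up with the paired gene names known, so their counts describe the groups and show nothing about them as pathways. Their directions are to be read against the 83 of 92 paired wide peaks that were higher in CIH, a share at which small groups often have no RA peak. Where a peak was paired with 2 genes, the data do not say which gene it belongs to. Each direction is that of the wide peak, and some genes were also paired with held peaks outside the set that had the other direction.

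In the oxidative stress and FOXO group, 6 of 18 genes lay at a wide standalone peak and all 6 peaks were higher in CIH, beside 83 of 92 over all paired wide peaks. Besides Klf9, Foxo1 and Ddah1, these were Txnip (2150 bp, chr3:96361601-96363750), Oser1 (2000 bp, chr2:163188801-163190800) and Trp53inp1 (1550 bp, chr4:11082501-11084050). Txnip encodes an arrestin-like protein that binds and inhibits thioredoxin, Ddah1 an enzyme that breaks down asymmetric dimethylarginine, an inhibitor of nitric oxide synthase, and Trp53inp1 a stress protein induced by p53. Txn1, Prdx1 and Nfe2l2 were paired with other held peaks that did not meet the rule, and the other 9 genes were not in the held pairing. Foxo1 was also paired with narrower held peaks of 950 and 750 bp, and Klf9 with a held peak of 600 bp, all of them higher in RA.

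In the NF-kB and inflammatory signalling group, 8 of 18 genes lay at a wide standalone peak, and all 8 were at peaks higher in CIH, a count again near the 83 of 92 of all paired wide peaks. Rela encodes the p65 subunit of NF-kB and had a peak of 1550 bp (chr19:5609051-5610600). Mapkapk2, the kinase MK2 downstream of p38, shared a peak of 1600 bp with Dyrk3 (chr1:132993051-132994650). Pde4b, a phosphodiesterase that breaks down cyclic AMP, had 2 wide peaks, of 1900 bp (chr4:102229851-102231750) and 1750 bp (chr4:102431801-102433550). Its narrower held peaks were higher in RA at 850 bp and in CIH at 550 bp. The group also held Fgr, a Src family kinase of myeloid cells (1650 bp, shared with Fam76a), Cnr2, the cannabinoid receptor of immune cells (1950 bp, shared with Pnrc2), Cd6, a lymphocyte receptor (1700 bp), Spsb1, a SOCS box protein (1700 bp, shared with H6pd), and Tiparp. Nfkb2, Tlr2, Tlr4, Tank and Tifa were paired with held peaks outside the wide standalone set.

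In the cell cycle and DNA repair group, 7 of 18 genes lay at a wide standalone peak, and all 7 peaks were higher in CIH, as were 83 of the 92 paired wide peaks. Cdkn2c, which encodes the cyclin-dependent kinase inhibitor p18INK4C, shared a peak of 1950 bp with Faf1 (chr4:109348501-109350450). Among repair genes, Ddb1, a subunit of a damage-sensing ubiquitin ligase, had 1650 bp (chr19:10679201-10680850), Nbn, part of the complex that senses double-strand breaks, shared 1650 bp with Decr1 (chr4:15884801-15886450), and Zranb3, a replication fork remodeller, shared 1550 bp with R3hdm1 (chr1:129999201-130000750). The remaining 3 were Uhrf2, Ahctf1 and Banf2, with widths of 2050, 1650 and 2350 bp, and 3 more genes of the group were paired with held peaks that did not meet the rule.

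The transcription and chromatin group had 9 of 16 genes at a wide standalone peak, all higher in CIH (83 of 92 over all paired wide peaks), and the counts include Klf9, Foxo1, Rela and Uhrf2 again. A further 5 of its genes were paired with held peaks outside the wide standalone set. Kdm4c encodes a demethylase of histone H3 lysine 9 and had a peak of 2150 bp (chr4:73896951-73899100). Pcgf5, a Polycomb group ring finger gene, had 1950 bp (chr19:36627151-36629100), and Maml3, a coactivator of Notch, had 1600 bp (chr3:51849451-51851050). Prdm2 was paired with 2 wide peaks, of 1600 bp (chr4:142750751-142752350) and 1700 bp (chr4:142801351-142803050, shared with Pdpn), separated by 49000 bp. Hdgf shared 1800 bp with Mrpl24 (chr3:87710301-87712100).

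In the RNA group, 9 of 14 genes lay at a wide standalone peak. Of these, 8 were at peaks higher in CIH and 1, Esf1, at a peak higher in RA, beside 83 of 92 paired wide peaks higher in CIH. Esf1 was also paired with a held peak of 1300 bp that was higher in CIH. The nuclear lncRNA genes Malat1 and Neat1 were both paired with 1 peak of 2100 bp (chr19:5810401-5812500). Narrower held peaks of Malat1 were higher in RA at 600 bp and in CIH at 1050 bp. Ago1, a protein that carries small RNAs, had 2150 bp (chr4:126105451-126107600), Tardbp, which encodes TDP-43, shared 1750 bp with Gm572 (chr4:148000201-148001950), and Celf2, a splicing regulator, had 2100 bp (chr2:6641051-6643150). Rbm39, Fubp1 and Lsm10 had peaks of 1950, 2400 and 1800 bp, the last shared with Stk40. Rbm39 was also paired with a held peak of 450 bp that was higher in RA and contained a transcription start of the gene.

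The membrane traffic group had 14 of 20 genes at a wide standalone peak, 12 at peaks higher in CIH and 2 at peaks higher in RA. Over all paired wide peaks, 83 of 92 were higher in CIH. Arl2, Ap4b1, Rab2a and Trappc3 were paired with held peaks outside the wide standalone set. Gorasp2, a Golgi stacking protein, had 2200 bp (chr2:70499501-70501700), Stx5a, a SNARE of the Golgi, shared 1600 bp with 1700092M07Rik (chr19:8815601-8817200), and Sec24d, a cargo subunit of the COPII coat, shared 1900 bp with Synpo2 (chr3:122907301-122909200). Sec62, Cog6, Arl14, Ehd4, Chmp5, Suco, Pi4k2a, Dennd4b and Arl8a made up the other CIH genes, with widths from 1600 to 2450 bp. The RA genes were Arl6ip6 (1900 bp, chr2:53049951-53051850) and Dennd4c, an exchange factor for Rab GTPases (1550 bp, chr4:86395051-86396600), while its paralog Dennd4b had a peak of 1700 bp higher in CIH (chr3:90068751-90070450).

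In the mitochondria and metabolism group, 11 of 15 genes lay at a wide standalone peak. Of these, 8 were at peaks higher in CIH and 3 at 2 peaks higher in RA, beside 83 of 92 paired wide peaks higher in CIH. Ndufc1 and Eno1 were paired with held peaks outside the wide standalone set. Gpd2, the mitochondrial glycerol-3-phosphate dehydrogenase, shared a peak of 1700 bp with A930012O16Rik (chr2:57089801-57091500), and the other CIH genes were Decr1, Cox20, H6pd, Ckmt1, Ak5, Nceh1 and Mrpl24. The RA genes were Ndufaf5, an assembly factor of respiratory complex I that shared 1800 bp with Esf1 (chr2:139995551-139997350), and Sgms2, a sphingomyelin synthase, which shared its peak with Papss1, an enzyme that makes the sulfate donor PAPS.

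Among the other paired RA peaks were those of Cubn with Trdmt1 (1600 bp, chr2:13359101-13360700), Kif16bos (1550 bp, chr2:142728101-142729650) and Hcn3 (1600 bp, chr3:88968201-88969800). Cubn encodes the endocytic receptor cubilin, Trdmt1 a tRNA methyltransferase and Hcn3 a cation channel. In all, the 9 paired RA peaks lay on chromosome 2 (4 peaks), chromosome 3 (4 peaks) and chromosome 4 (1 peak). Whether wide peaks higher in RA lie at genes of other kinds than those higher in CIH was not tested with 9 peaks.

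Wide standalone peaks were often in the pairing. Within the range of peak names it covers, 92 of 120 wide standalone peaks were in it (76.7%, 68.1 to 83.9%), close to the 15 of 23 touching peaks over 1500 bp (65.2%, 42.7 to 83.6%) and above 93 of 280 standalone peaks over 1000 and up to 1500 bp (33.2%), 1 of 722 standalone peaks up to 250 bp (0.139%) and 483 of all 5440 peaks (8.88%). The pairing holds peaks that the study selected for having the most reads, so the genes above are those of selected peaks. The part of this selection in the shares by width was not tested.

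The sequence given with the study covered the first 399 bases from the left end of each wide peak, 21.9% of its length at the median. In that stretch a RefSeq transcription start was found in 9 of the 92 paired peaks (9.78%, 4.57 to 17.8%). It was found in 15 of 93 standalone peaks over 1000 and up to 1500 bp (16.1%) and in 65 of the 391 paired peaks outside the wide standalone set (16.6%). The intervals of these shares overlapped, and a start further right in a peak could not be seen.

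Where a start was found under a peak higher in CIH, the gene mostly ran into the peak. This held at 6 of 7 peaks, those of Stx5a, Uhrf2, Gpd2, Gorasp2, Txnip and Dnajb5. The acetylated region then extended 1286 bp past the start of Stx5a, 1411 bp past that of Gpd2, 1697 bp past that of Uhrf2, 1870 bp past that of Txnip, 1961 bp past the first of the 2 starts of Dnajb5 and 2134 bp past that of Gorasp2. The seventh was the lncRNA gene Lexis1, which read out of a peak paired with 4930412L05Rik and had 1867 bp of the peak before its start. In both peaks higher in RA, at Sgms2 and at the lncRNA gene Gm6521 in the peak of Dennd4c, the gene read out of the left end, and 2267 bp of the peak lay before the start of Sgms2. Only the left ends of peaks over 1500 bp were read, so a gene on the plus strand can here only run into its peak and one on the minus strand only out of it, with most of the peak on that side. These lengths and orientations therefore follow from the window and the width limit and are given as positions alone.

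The left ends of wide standalone peaks were lower in GC than the starts of other paired peaks. The GC content of the held bases had a median of 47.4% in peaks higher in CIH (range 31.6 to 76.2%, n = 83) and 46.4% in peaks higher in RA (33.8 to 63.2%, n = 9), so the 2 directions were close. Standalone peaks over 1000 and up to 1500 bp had a median of 55.6% (n = 93), and all paired peaks outside the wide standalone set had 54.7% (n = 391). The lowest values among wide peaks, 31.6% each, were at Ankub1 and at Tiparp. A CpG ratio (observed over expected) of at least 0.6, as in CpG islands, was reached by 24 of 92 wide peaks (26.1%), by 38 of the 93 over 1000 and up to 1500 bp (40.9%) and by 194 of the 391 others (49.6%). The held stretch was 31.9% of the peak at over 1000 and up to 1500 bp and 42.0% in the 391 peaks, so width and the position of the stretch within the peak cannot be told apart. The compared peaks also differ in selection. In its name range the pairing held 76.7% of wide standalone peaks, 33.2% of those over 1000 and up to 1500 bp and 8.88% of all peaks. The shares of starts and of motif letters have the same limit.

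**Figure D3:**
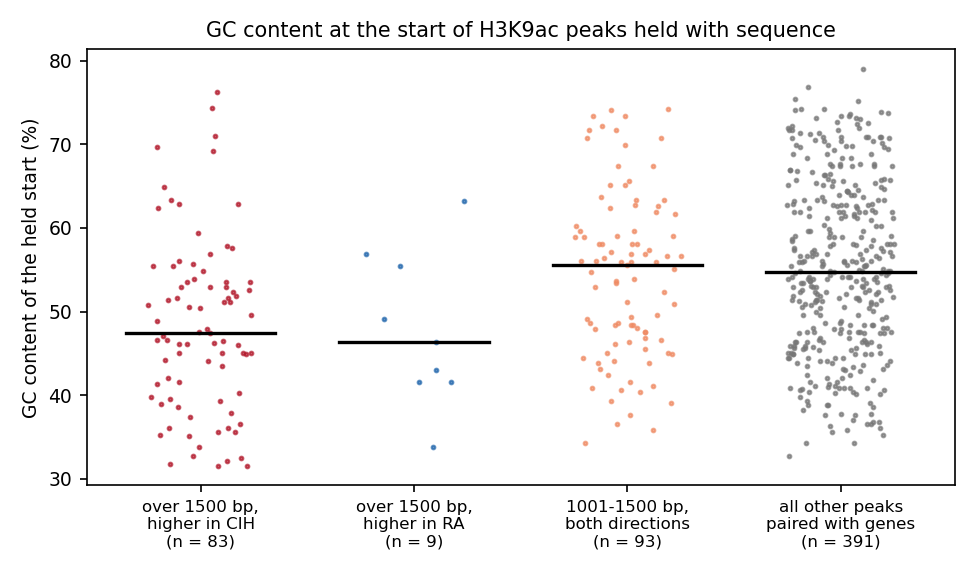
GC content (y axis, %) of the held left end of each peak with sequence, 1 point a peak, with the median as a bar. The medians are 47.4% in wide standalone peaks higher in CIH, 46.4% in those higher in RA, 55.6% in standalone peaks over 1000 and up to 1500 bp and 54.7% in all 391 paired peaks outside the wide set, which include those over 1000 and up to 1500 bp.

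Motif letters were counted in the first 300 bases on both strands, in the 92 wide peaks, in 390 other paired peaks and in the 32851 RefSeq promoters of the same length. TATA letters (TATAAA) were in 21 wide peaks (22.8%, 14.7 to 32.8%), against 7.69% of the others and 13.6% of promoters. Of the 9 paired wide peaks higher in RA, those of Cubn, Esf1, Kif16bos, Hcn3 and Prkacb were among these 21. The GC box (GGGCGG) was in 16 wide peaks (17.4%, 10.3 to 26.7%), against 32.6% and 35.7%. All 16 were higher in CIH, as were 83 of the 92. The pooled shares thus mix the 2 directions, and a difference between them was not tested. These shares lie the way of the GC content, which was lower in the wide peaks. The hypoxia response core (ACGTG or GCGTG) was in 30 wide peaks (32.6%, 23.2 to 43.2%), against 44.4% (39.4 to 49.4%) of the others and 43.8% of promoters. The intervals of wide and other peaks overlapped. Both forms of this core contain a CpG, and the median CpG ratio was 0.399 in wide peaks and 0.595 in other paired peaks. The part of base content in this share was not tested.

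Rarer motifs were found in few peaks. The letters of the FOXO motif (GTAAACA) were in 6 wide peaks (6.52%, 2.43 to 13.7%), against 2.56% (1.24 to 4.66%) of the others and 3.65% of promoters, and those intervals overlapped. All 6 peaks were higher in CIH, as were 83 of the 92 paired wide peaks. The 6 were those of Txnip, Malat1 with Neat1, Rcsd1, 4930412L05Rik, Cox20 and Prdm2 with Pdpn. In the Txnip run printed above the match lies ahead of the marked start, between a pair of CCAAT boxes. AP-1 letters were in 2 wide peaks (2.17%), at Rela and Sec62, against 6.15% and 5.20%. The E-box (CACGTG) was in 3 (3.26%), at Synpo2, at Tagln2 with Igsf9 and at Tardbp, against 5.64% and 7.15%. The ETS letters of the PU.1 kind (GAGGAAGT) were in 1 (1.09%), the peak of Malat1 and Neat1, against 1.03% and 3.20%, and CCAAT was in 32 (34.8%), against 29.7% and 37.4%. The cyclic AMP response element (TGACGTCA) was in none of the wide peaks, against 1.79% of both.

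The wide peaks were standalone, and most had another H3K9ac peak within 100 kb, as most peaks of the list had. The distance to the nearest other H3K9ac peak had a median of 26300 bp (quartiles 9450 and 56475 bp, maximum 644900 bp). A neighbour lay within 10 kb of 139 of the 507 (27.4%), and 54 (10.7%) had none within 100 kb. Standalone peaks over 1000 and up to 1500 bp had a median of 28100 bp, and those up to 250 bp had 44100 bp with 25.3% beyond 100 kb. The wide peaks higher in CIH had a median distance of 25800 bp and those higher in RA 38750 bp, with a neighbour within 10 kb in 129 (27.8%) and 10 (23.3%) of them.

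**Figure D4:**
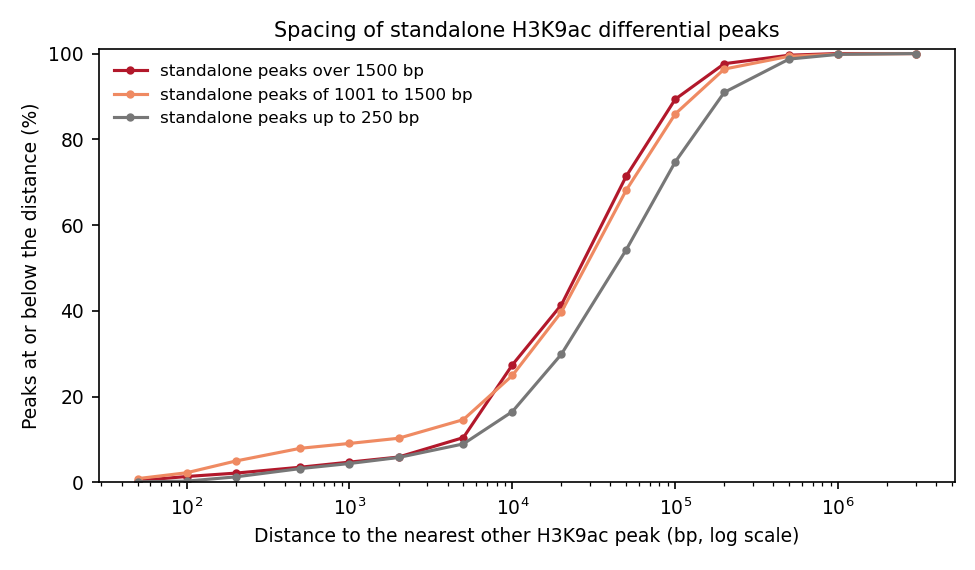
Share of standalone peaks (y axis, %) whose nearest other H3K9ac peak lies at or below a distance (x axis, bp, log scale), for peaks over 1500 bp, over 1000 and up to 1500 bp, and up to 250 bp. At 10 kb the line of the peaks over 1500 bp stands at 27.4%. The line of the narrowest peaks lies below the other 2, at 16.5% at 10 kb and 74.7% at 100 kb, and all lines meet at the largest distance.

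The nearest neighbour did not share the strong direction of the wide peaks. It was higher in CIH in 239 of 507 cases (47.1%, 42.7 to 51.6%), close to the 45.4% of the whole list. The share was 47.6% for wide peaks higher in CIH (221 of 464, 43.0 to 52.3%) and 41.9% for those higher in RA (18 of 43, 27 to 57.9%). Within 10 kb it was 69 of 139 (49.6%), and within 1 kb 16 of 24 (66.7%, 44.7 to 84.4%). The neighbours were mostly narrow, with a median of 500 bp, and in 17 cases the neighbour was itself a wide standalone peak. At Klf9, for example, a peak higher in RA lay 3300 bp from the peak higher in CIH, and the RA peak at Kif16bos had a CIH neighbour at 400 bp.

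Wide standalone peaks were mostly far from each other. Consecutive ones on a chromosome formed 487 pairs with a median gap of 2502 kb, and 18 of these pairs had no other H3K9ac peak between them. The gap was within 50 kb in 12 pairs, of which 11 were higher in CIH on both sides, none was higher in RA on both and 1, on chromosome 11, was mixed (gap 33600 bp). Of all wide standalone peaks 91.5% were higher in CIH, a share at which most pairs have CIH on both sides at any gap. The closest pair lay on chromosome 6, at chr6:134870001-134871750 and chr6:134877051-134878600, with 5300 bp between the peaks. On chromosome 1, the peak of Dyrk3 and Mapkapk2 lay 11950 bp from the next wide peak.

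All autosomes and chromosome X held wide standalone peaks. The largest number was 46 on chromosome 11 and the smallest on an autosome was 11 on chromosome 17, with 3 on X and none on Y, which had 4 peaks listed. As a share of the peaks listed on each chromosome, wide standalone peaks ran from 1.39% on chromosome 2 (0.881 to 2.07%) and 1.43% on chromosome 17 (0.717 to 2.55%) to 3.45% on chromosome 8 (2.44 to 4.72%) and 3.56% on chromosome 9 (2.56 to 4.79%). The interval of chromosome 2 lay below the 2.42% of the whole list and those of chromosomes 8 and 9 lay above it, while those of the other autosomes and X contained it. On every chromosome most wide peaks were higher in CIH. The share was smallest on chromosome 2, with 17 higher in CIH and 6 in RA (73.9%), and 100% on chromosomes 8 (37 peaks), 18 (17 peaks), 19 (15 peaks) and X. Over all listed peaks, too, chromosome 2 had the smallest share higher in CIH, 40.1%. That share was 45.9% on chromosome 8, 46.4% on 18, 47.7% on 19 and 58.3% on X. Peaks higher in RA were found on 16 of the 19 autosomes.

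**Figure D5:**
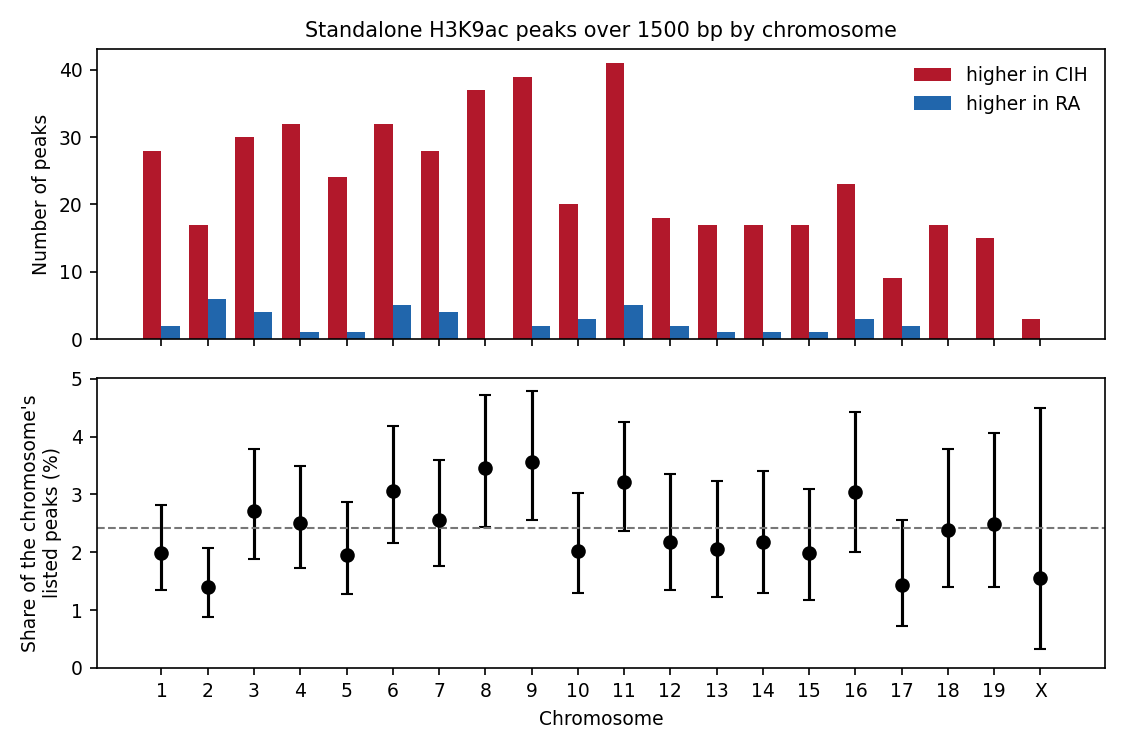
Wide standalone H3K9ac peaks by chromosome (x axis): above, the number higher in CIH (red) and higher in RA (blue), and below, their share of the chromosome's listed H3K9ac peaks (%) with exact 95% intervals. The dashed line is the 2.42% of the whole list, chromosome 2 lies below it at 1.39% and chromosome 9 above it at 3.56%, and each chromosome has more peaks higher in CIH than in RA.

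No wide standalone peak shared a base with a differential peak of H3K27me3. The H3K27me3 list held 146 peaks, 53 with more of the mark in CIH and 93 with more in RA. It met 35 of the 20943 H3K9ac peaks (0.167%), with widths of 150 to 1250 bp, and 0 of the 507, a count that allows a share of up to 0.592%. At this number an absence from the wide peaks was therefore not detectable. A wide peak had an H3K27me3 peak within 10 kb in 1 case and within 100 kb in 4, the median distance was 5891 kb, and the nearest was 3450 bp from the peak at chrX:11664201-11666400, which was higher in CIH.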

How the data were processed

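H3K9ac and H3K27me3 were profiled by ChIP-Seq in aorta macrophages of CIH and RA mice, with 1 library per mark and exposure. The submitters' notes name MACS2 2.1.0, BWA 0.7.12, bedtools 2.23.0, Picard 1.121, SAMtools 1.2 and Trimmomatic 0.32 as tools, and mm9 as build. For each mark, 1 list of differential peaks was deposited. The deposited score was 1000 in every peak, so a stricter threshold could not be set. Signs were read from the direction words in the authors' gene pairing, whose counts and p-values were not used.

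Positions, widths and gaps were computed from the deposited lists with Python 3.11.15, numpy 2.4.6, pandas 2.3.3 and scipy 1.17.1, tested on simulated data. Intervals are exact Clopper-Pearson at 95%. A count of 0 was given a limit of 3 counts. Sequences came with the gene pairing, and promoters and starts from RefSeq (GRCm38.p6), used for sequence and names only. Bases read as N were left out, and the longest run without N was printed.

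The members, gene lists and named genes were chosen with earlier results of these data known. Named were genes at the 10 widest paired peaks, at peaks higher in RA and in 8 lists, and the 5 widest unpaired peaks. The result of 1 list and 1 peak higher in RA is not reported here. A few more were named with their motif, start or spacing after their values were seen. The alternatives were other width limits, other definitions of standing apart and of distance, autosomes alone, sharing H3K27me3 by other criteria, GC over other bases and a longer match at starts.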

Additional observations from a re-analysis of the deposited data

How the results depend on the processing

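The number of wide standalone peaks and their direction depended on the width limit. With a limit of 1000 bp there were 1750 peaks, 84.4% higher in CIH, and with 2000 bp there were 148, 95.3% higher in CIH, against 507 and 91.5% at 1500 bp. The median distance to a neighbour was 35200 bp when only standalone neighbours counted, against 26300 bp. Under the other alternatives the number ran from 483, with no other peak within 1 kb, to 629, with touching peaks included, and the share higher in CIH from 91.3 to 91.6%. Sharing with H3K27me3 stayed at 0 of 507, the median GC content was 46.9% over 300 bases against 47.2% over all held, and starts were found in 9 peaks with both match lengths. No paired analysis was possible because each group had 1 library, and no replicate could be left out. The lack of read totals in the lists, the lack of input and the part held of the gene pairing limit every value.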
